A study of Mus musculus with 15 samples.

Results

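The 10 genes described here encode the checkpoint and costimulatory receptors *Icos*, *Cd226*, *Ctla4*, *Pdcd1*, *Tigit*, *Lag3*, *Havcr2* and *Cd96* and the ligands *Icosl* and *Cd274*. They were taken by gene symbol from the 24690 entries of each deposited table, and all 10 were found once each, in 15 libraries of mouse group 2 innate lymphoid cells (ILC2s) and their precursors (ILC2p). ILC2s are tissue lymphocytes without antigen receptors that secrete type 2 cytokines under the control of GATA3. The study asked how TGF-β signaling through its receptor chain TβR2, the product of *Tgfbr2*, shapes these cells.

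All sorted cells derived, by the labels and the sort, from *Tgfbr2*f/f ER-Cre+ mice on C57BL/6, so the floxed alleles and a tamoxifen-dependent Cre were present in the controls too. ILC2s came from the intestinal lamina propria (LP) of mice 8 to 12 weeks old, treated for 5 days with tamoxifen at 1 mg per day (Tgfbr2-/-) or with sunflower oil (WT), and were sorted 1 day after the last treatment as CD45+Lin-CD127+Sca-1+CD25+KLRG1+. ILC2p were sorted from bone marrow (BM) as CD45.2+Lin-CD127+α4β7+CD25+ in mixed chimeras of irradiated CD45.1+ hosts that had received CD45.1+ BM cells together with *Tgfbr2*f/f ER-Cre+ BM cells exposed to tamoxifen or oil, a model the study analysed 6 weeks after transfer. These samples were also recorded with 5 days of treatment. By the study's description of these chimeras, the donor mice were treated before transfer. There were 4 WT and 3 Tgfbr2-/- ILC2 libraries and 4 WT and 4 Tgfbr2-/- ILC2p libraries, in 2 experiments per cell type, with a single Tgfbr2-/- ILC2 library in experiment 2. Each experiment held 1 cell type, so cell type, tissue, kind of mouse and experiment cannot be told apart. The sources used here do not say whether replicates came from separate mice, and p-values measure only the spread between these libraries. The summed gene counts of a library lay between 12167066 and 32114265 for ILC2s and between 10957021 and 35961215 for ILC2p. Levels are given as CPM, counts scaled to library size, where 1 count corresponded to 0.0237 to 0.107 CPM.

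Checkpoint receptors restrain lymphocytes and costimulatory receptors support them, and the balance is set by ligands on neighbouring cells. ICOS binds ICOS ligand, and ILC2s are known to carry both and to depend on this pair for survival and cytokine secretion. PD-1, encoded by *Pdcd1*, binds PD-L1, encoded by *Cd274*, and restrains ILC2s. CTLA-4 competes with the costimulatory receptor CD28 for CD80 and CD86. TIGIT, CD96 and the activating receptor CD226 share ligands of the nectin family such as CD155, encoded by *Pvr*. LAG-3, a relative of CD4, binds MHC class II, and TIM-3, encoded by *Havcr2*, binds galectin-9 and CEACAM1.

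The promoters of *Ctla4* and *Tigit* are shown because these were the inhibitory receptors called between ILC2s and ILC2p. They run from 250 bases before to 50 bases after the transcription start in the RefSeq promoter table (GRCm38.p6) used here, which was matched for 7 of the 10 genes, all but *Icos*, *Lag3* and *Cd226*. *Ctla4* lies on the plus strand (chr1:60908775-60909074) and *Tigit* on the minus strand (chr16:43664135-43664434). Capitals mark a match, on either strand, to the motif AGATAA of GATA factors or to CAGAC, the SMAD box bound by the transcription factors that carry the TGF-β signal. The *Tigit* window held 1 AGATAA and no CAGAC, and the *Ctla4* window held neither. AGATAA was present in 11.2% and CAGAC in 49.6% of the 32851 promoters in that table, so either motif is common. A match is a description of these letters only.
Ctla4: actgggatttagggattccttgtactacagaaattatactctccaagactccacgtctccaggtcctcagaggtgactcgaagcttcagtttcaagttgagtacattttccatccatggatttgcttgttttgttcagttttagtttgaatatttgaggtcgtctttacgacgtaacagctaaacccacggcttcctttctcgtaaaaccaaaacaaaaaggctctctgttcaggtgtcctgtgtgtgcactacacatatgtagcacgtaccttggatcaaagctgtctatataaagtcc
Tigit: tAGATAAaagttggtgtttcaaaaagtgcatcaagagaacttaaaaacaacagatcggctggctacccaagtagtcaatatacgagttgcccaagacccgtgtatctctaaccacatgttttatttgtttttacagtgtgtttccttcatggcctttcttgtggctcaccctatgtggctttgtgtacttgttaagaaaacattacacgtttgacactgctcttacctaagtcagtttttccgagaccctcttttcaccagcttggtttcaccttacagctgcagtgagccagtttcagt

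On the genome build of the counts (mm9, NCBIM37), by GENCODE positions, which were not the gene models used for counting, *Ctla4* (chr1:60943844-60972676, plus strand) lies between *Cd28* and *Icos* (chr1:61034771-61057164, plus strand), 62.1 kb from *Icos*. *Pdcd1* lies on the same chromosome (chr1:95934884-95949130, minus strand). *Lag3* (chr6:124854379-124861723, minus strand) is 16.1 kb from *Cd4*. *Tigit* (chr16:43648974-43664297) and *Cd96* (chr16:46035770-46120364) are on the minus strand of chromosome 16, and *Cd274* (chr19:29441945-29462585) and *Icosl* (chr10:77532105-77546000) are on plus strands. The counts cover the full transcript of each gene.

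The libraries were checked against their labels. *Tgfbr2*, the targeted gene, had levels of 174, 257, 146 and 202 CPM in WT ILC2s against 202, 179 and 95 CPM in Tgfbr2-/- ILC2s (log2 fold change -0.46 ± 0.24 SE, edgeR adjusted p = 0.898). In ILC2p it ranged from 0.703 to 227 CPM in WT and from 31.8 to 233 CPM in Tgfbr2-/- libraries. The genotypes overlapped in both cell types. The counts run over the whole transcript and hold no separate value for the deleted part, so they do not check the deletion, and WT and Tgfbr2-/- stand for the labels throughout. *Gata3* was at 2231 to 4579 CPM in the 7 libraries labelled ILC2, and no ILC2 library lacked any of 12 ILC2 marker genes. The 10 T cell genes summed to 75.4 to 232 CPM there, with *Cd4*, *Cd6* or *Cd3g* the most abundant (at most 87.3, 75.7 and 76.1 CPM), *Cd3e* at 1.84 to 17.7 CPM and *Cd8a* at 0 in all 7. *Tnfrsf18*, which ILC2s also express, made up most of a regulatory T cell list (530 to 1034 CPM) whose *Foxp3* reached 8.57 CPM. B cell genes summed to 44.9 to 83.7 CPM in ILC2s, mostly *Cd79b*, with *Pax5* at 0.

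The ILC2p libraries stood apart in a pair of ways that bear on every result with ILC2p below. Neutrophil genes (*S100a8*, *S100a9*, *Mpo*, *Elane*, *Camp*, with none of the 5 at 0) summed to 718 to 1454 CPM in the 4 WT and to 51027 to 62262 CPM in the 4 Tgfbr2-/- ILC2p libraries, against at most 1.29 CPM in ILC2 libraries. In Tgfbr2-/- ILC2p *S100a8* was the most abundant at 24524 to 30138 CPM, although the sort excluded CD11b+, CD11c+ and Gr-1+ cells. Genes of dendritic cells and macrophages summed to 103 to 571 CPM in WT and to 11817 to 14340 CPM in Tgfbr2-/- ILC2p. *Lyz2* was the most abundant of them in the latter (log2 fold change 8.09 ± 0.34, edgeR adjusted p = 1.08e-05). The 12 ILC2 genes summed to 5921 to 8502 CPM in WT and 2741 to 4186 CPM in Tgfbr2-/- ILC2p, and *Gata3* (log2 fold change -1.41 ± 0.31, adjusted p = 0.0603) and *Il1rl1*, the IL-33 receptor ST2 (-1.96 ± 0.22, adjusted p = 0.00156), fell. Their part in the values of the receptor genes was not tested. Second, 4 ILC2p libraries were sparse. Of the genes at 50 CPM or more as a median in the other ILC2p libraries, 14.7% were under 1 CPM in WT replicate 1 of experiment 1, 13.0% and 14.5% in Tgfbr2-/- replicates 1 and 2 of experiment 1, and 9.76% in Tgfbr2-/- replicate 2 of experiment 2. The share was at most 3.73% in the other ILC2p libraries and at most 0.027% in ILC2 libraries.

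**Figure D1:**
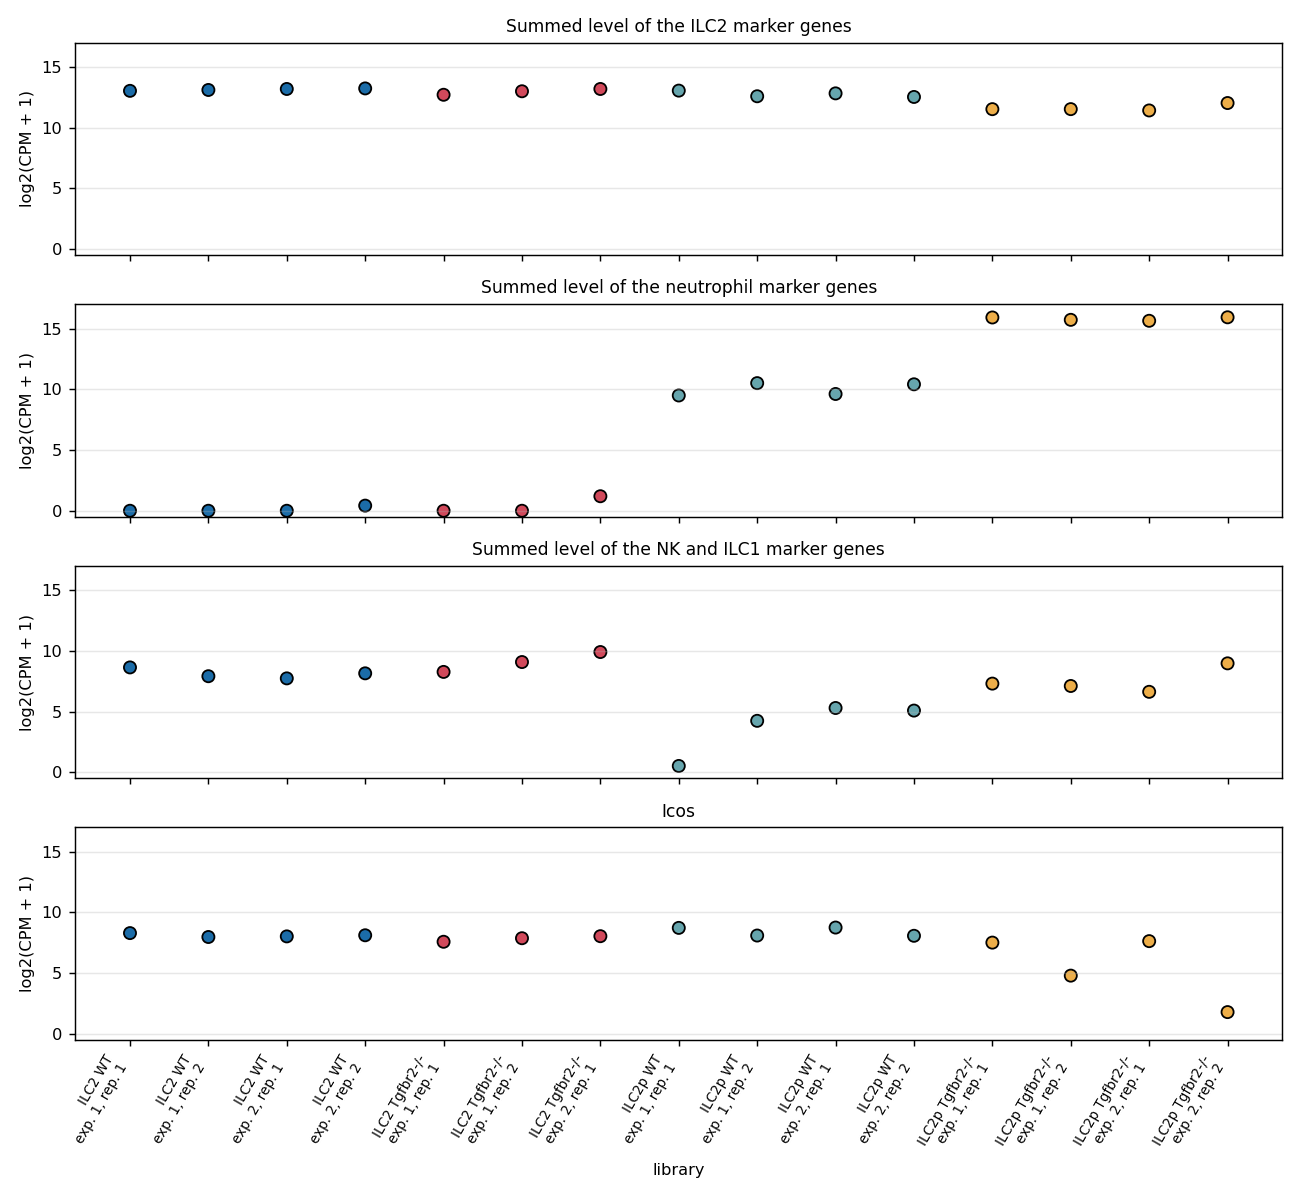
Summed levels of the ILC2, neutrophil and NK and ILC1 marker genes and the level of *Icos*, as log2(CPM + 1), 1 point per library (blue, ILC2 WT; red, ILC2 Tgfbr2-/-; teal, ILC2p WT; yellow, ILC2p Tgfbr2-/-). Neutrophil genes reached 51027 to 62262 CPM in the 4 Tgfbr2-/- ILC2p libraries, and *Icos* was lowest in replicate 2 of each experiment there.

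In ILC2s, per length of transcript, 3 receptors were abundant. By the median deposited RPKM of the 4 WT libraries, *Pdcd1* (156), *Cd96* (144) and *Icos* (94.9) led and their ranges overlapped. *Cd226* (24.1), *Cd274* (21.4) and *Icosl* (11.5) followed, and *Ctla4* (5.75), *Tigit* (2.34), *Lag3* (0.649) and *Havcr2* (0) were low. The gaps between *Icos* and *Cd226*, between *Cd274* and *Icosl* and between *Icosl* and *Ctla4* were the only steps between neighbours in this order where ranges did not overlap. In Tgfbr2-/- ILC2s the leading 5 genes kept this order by median. In WT ILC2p *Icos* led at 116 RPKM, ahead of *Cd96* at 64.4 RPKM, and the ranges of all neighbours overlapped.

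**Figure D2:**
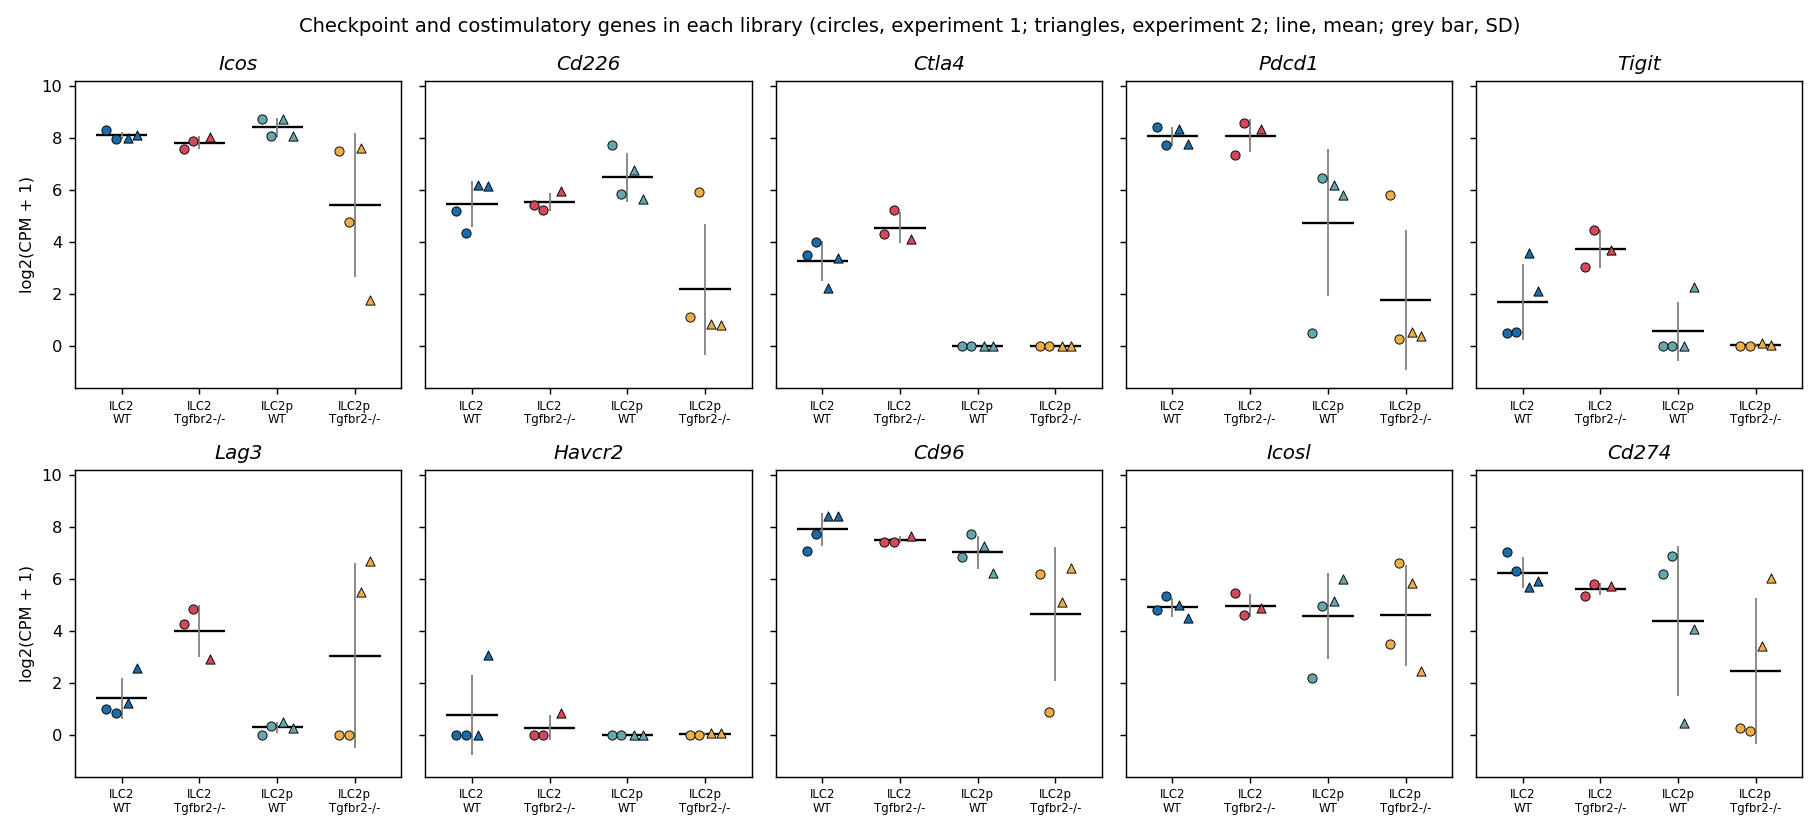
Level of each of the 10 genes as log2(CPM + 1) in the 15 libraries, by cell type and genotype (circles, experiment 1; triangles, experiment 2; line, mean; grey bar, SD). *Ctla4* was at 0 in all 8 ILC2p libraries, and *Lag3* and *Ctla4* in the 3 Tgfbr2-/- ILC2 libraries lay above all 4 WT ILC2 libraries.

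In ILC2s, 3 inhibitory receptors, *Lag3*, *Tigit* and *Ctla4*, had higher values in every Tgfbr2-/- library than in the WT libraries of the same experiment. By edgeR, no gene of the 11981 tested was called at a Benjamini-Hochberg adjusted p under 0.1 and a fold change over 1.5 (0% called), and 557 genes (4.65%) had an unadjusted p under 0.05. DESeq2 called 338 genes, and its adjusted p was under 0.1 for *Lag3* and *Tigit* but not for *Ctla4*, as given below. A separation of this kind was seen in 6.98% of the genes tested for higher and 5.53% for lower values. *Havcr2* did not pass the filter on low counts. Of the 9 receptor and ligand genes tested, 6 had a log2 fold change above 0, with a median of 0.07 against -0.01 over all genes.

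In experiment 1, WT ILC2s held *Lag3* at 0.994 and 0.801 CPM and Tgfbr2-/- ILC2s at 18.4 and 28 CPM. In experiment 2 the WT values were 1.37 and 4.9 CPM and the Tgfbr2-/- value was 6.52 CPM. All 3 Tgfbr2-/- libraries lay above all 4 WT libraries. The fitted log2 fold change was 3.50 ± 1.23 (SE), with an edgeR p of 0.0209 and adjusted p of 0.898, against a DESeq2 adjusted p of 0.0239. It was 4.69 within experiment 1 and 1.08 within experiment 2. The exact permutation test of genotype within experiments gave p = 0.111 (two-sided), where 0.0556 is the smallest this design allows.

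In experiment 1, WT ILC2s held *Tigit* at 0.426 and 0.471 CPM, and Tgfbr2-/- ILC2s held it at 7.26 and 21.4 CPM. In experiment 2 WT libraries were at 11.1 and 3.33 CPM and the Tgfbr2-/- library at 12.1 CPM, so that a WT library of experiment 2 lay above a Tgfbr2-/- library of experiment 1. The log2 fold change was 3.65 ± 1.43 (edgeR adjusted p = 0.898, DESeq2 adjusted p = 0.0311, exact permutation p = 0.111). It was 4.99 within experiment 1 and 0.76 within experiment 2, and across experiments *Tigit* differed by 2.66 ± 1.42 (adjusted p = 0.465).

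WT ILC2s held *Ctla4* at 10.4, 15.3, 3.67 and 9.59 CPM, experiment 1 first. Tgfbr2-/- ILC2s held it at 18.8, 37.2 and 16.6 CPM, above every WT library. The log2 fold change was 1.19 ± 0.60 (adjusted p = 0.898 by edgeR and 0.459 by DESeq2, exact permutation p = 0.111), 1.13 within experiment 1 and 1.35 within experiment 2. The study named *Ctla4* from these same samples, so its direction here is not independent of that choice.

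Genes of NK cells and ILC1s also had fitted values higher in Tgfbr2-/- ILC2s, without a call. All 7 of the 8 NK and ILC1 markers that were tested had log2 fold changes above 0 in ILC2s, with a median of 1.48 against -0.01 over all genes. *Klrb1c*, which encodes NK1.1, had 2.75, 3.86, 7.11 and 1.97 CPM in WT against 17.4, 28.5 and 13.7 CPM in Tgfbr2-/- ILC2s. *Ncr1*, which encodes NKp46, had 6.24 to 34.8 CPM in WT against 31.4 to 97.2 CPM in Tgfbr2-/- ILC2s. The list summed to 212 to 397 CPM in WT and 307 to 957 CPM in Tgfbr2-/- libraries, its most abundant gene was *Gzma*, and *Eomes*, a defining factor of NK cells, was at 0 in all 7. The sum did not follow the receptors library by library. It was highest, at 957 CPM, in the Tgfbr2-/- library with the least *Lag3* and *Ctla4*. In experiment 1, WT replicate 1 (397 CPM) lay above Tgfbr2-/- replicate 1 (307 CPM). Of the genes tested in other lists, 5 of 6 for ILC3s (median 0.83) and 4 of 5 for dendritic cells and macrophages (2.36) also lay above 0. So did 5 of 6 for epithelium (3.53) and 2 of 3 for regulatory T cells (0.43), none called. Of the remaining lists tested, 4 of 7 T cell genes (0.20), 2 of 4 B cell genes (0.72) and 3 of 12 ILC2 genes (-0.28) lay above 0, none called. The T cell list summed to 115 to 232 CPM in WT and to 75.4 to 136 CPM in Tgfbr2-/- ILC2s. *Foxp3* had 8.57 CPM in Tgfbr2-/- replicate 2 of experiment 1, the ILC2 library highest in all 3 receptors, and at most 1.74 CPM in the others. The dendritic cell and macrophage list summed to 19.6 to 394 CPM in WT and 77.5 to 104 CPM in Tgfbr2-/- ILC2s. The ILC3 list, led by *Il22*, summed to 38.6 to 535 CPM in WT and to 168 to 365 CPM in Tgfbr2-/- ILC2s. The part of these genes in the values of *Lag3*, *Tigit* and *Ctla4* was not tested.

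The costimulatory receptors and the abundant inhibitory receptors were not called between the genotypes in ILC2s. *Icos* had 314, 251, 260 and 277 CPM in WT against 191, 234 and 263 CPM in Tgfbr2-/- ILC2s (log2 fold change -0.27 ± 0.18, adjusted p = 0.898). *Cd226* ranged from 19.3 to 73.3 CPM in WT and from 37.3 to 61 CPM in Tgfbr2-/- libraries (0.21 ± 0.34, adjusted p = 0.957). *Pdcd1* had 345, 212, 324 and 218 CPM in WT against 164, 382 and 323 CPM in Tgfbr2-/- ILC2s, with a spread between replicates far wider than the fitted 0.07 ± 0.32. *Cd96* ranged from 135 to 343 CPM in WT and from 170 to 202 CPM in Tgfbr2-/- libraries (-0.32 ± 0.23). These 4 genes overlapped between genotypes.

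The ligands were also present in ILC2s. *Cd274*, which encodes PD-L1, had 131, 79, 50.8 and 59.6 CPM in WT against 39.8, 54.5 and 51.7 CPM in Tgfbr2-/- ILC2s. Within experiment 1 both Tgfbr2-/- libraries lay below both WT libraries, and in experiment 2 the values overlapped (log2 fold change -0.73 ± 0.33, adjusted p = 0.898). *Icosl* ranged from 21.4 to 39.9 CPM in WT and from 23.2 to 43.1 CPM in Tgfbr2-/- ILC2s (0.02 ± 0.40).

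*Cd226* and *Cd96*, receptors that share ligands, were higher in experiment 2 than in experiment 1 in the WT ILC2 libraries. *Cd226* was at 36.1 and 19.3 CPM in experiment 1 against 73.3 and 70 CPM in experiment 2, and *Cd96* at 135 and 212 CPM against 340 and 343 CPM. With the genotype in the fit the experiments differed by 1.06 ± 0.34 for *Cd226* (adjusted p = 0.224) and 0.68 ± 0.23 for *Cd96* (adjusted p = 0.248), and neither was called by edgeR, where 117 of 11981 genes (0.977%) were, 0.284% higher and 0.693% lower in experiment 2, and 13.3% had an unadjusted p under 0.05. Leaving out any 1 of the 7 ILC2 libraries left 0 to 10 genes called. DESeq2 called both *Cd226* (adjusted p = 0.0482) and *Cd96* (adjusted p = 0.0499), among 1347 genes. In ILC2p 0 of 9242 genes were called between the experiments by edgeR (3.12% at an unadjusted p under 0.05, 397 genes called by DESeq2). Epithelial genes moved with the experiments in ILC2s, summing to at most 43 CPM in experiment 1 and to 108 to 1278 CPM in experiment 2, with *Krt8* the most abundant. Of the 6 epithelial genes 4 were called, all higher in experiment 2. The ILC3 list went the other way, at 225 to 535 CPM in experiment 1 and 38.6 to 168 CPM in experiment 2, none called. The part of these lists was not tested.

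*Havcr2* was at 0 in 5 of the 7 ILC2 libraries, which allows 3 counts, 0.0899 to 0.164 CPM, in each. It had 109 counts (7.41 CPM) in WT replicate 2 of experiment 2 and 11 counts (0.788 CPM) in the Tgfbr2-/- library of that experiment. The former library also led in genes of macrophages and dendritic cells, with a list sum of 394 CPM against 19.6 to 104 CPM in the other ILC2 libraries, *H2-Aa* the most abundant at 239 CPM, and *Csf1r* at 49.5 CPM against at most 1.61 CPM. The lineage exclusion of the sort included CD11b, CD11c and Gr-1. The part of macrophages and dendritic cells in the *Havcr2* counts was not tested. In ILC2p *Havcr2* had at most 1 count in any library.

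In ILC2p, none of the 6 receptor and ligand genes that passed the filter was called between Tgfbr2-/- and WT by edgeR, among 9242 genes tested of which 3.47% were called (241 or 2.61% higher, 80 or 0.866% lower) and 9.71% had an unadjusted p under 0.05. The lowest edgeR adjusted p was 0.439 for *Cd226*, which DESeq2 called (adjusted p = 0.00672). Of the 6 genes, 5 had a log2 fold change below 0, with a median of -2.65 against -0.10 over all genes. *Ctla4*, *Tigit*, *Lag3* and *Havcr2* did not pass the filter. In bulk RNA, fewer cells of a type and less RNA per cell cannot be told apart.

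WT ILC2p held *Icos* at 423, 273, 431 and 269 CPM, against 182, 26.8, 198 and 2.47 CPM in Tgfbr2-/- ILC2p. Every Tgfbr2-/- library lay below every WT library, as did 5.44% of the genes tested within experiments (8.52% lay above). The log2 fold change was -1.84 ± 1.05 (adjusted p = 0.727, exact permutation p = 0.0556, the smallest the design allows), and -0.93 (adjusted p = 0.467) without the 4 sparse libraries, which left 3 WT libraries against 1 Tgfbr2-/- library that was assumed to vary like them. Set against *Gata3* in the same library, a ratio chosen after the values were seen, *Icos* had 9.08 to 14.1 counts per 100 counts of *Gata3* in WT and 14.7, 2.99, 21.1 and 0.12 in Tgfbr2-/- ILC2p, so that 2 Tgfbr2-/- libraries lay above all WT libraries and 2 below. In ILC2s the same ratio was 6.05 to 10.4.

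WT ILC2p held *Cd226* at 210, 56.6, 109 and 50 CPM, against 1.21, 60.9, 0.833 and 0.741 CPM in Tgfbr2-/- ILC2p. Replicate 2 of experiment 1 alone reached the WT range, and the other 3 Tgfbr2-/- libraries lay below it with 12 to 19 counts each. The log2 fold change was -4.44 ± 1.80 (adjusted p = 0.439). It was -6.78 without that library (adjusted p = 0.0403). The exact permutation p was 0.111.

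The inhibitory receptors of ILC2p were uneven. *Pdcd1* had 0.439, 88.2, 71.7 and 55.8 CPM in WT against 54.7, 0.214, 0.482 and 0.329 CPM in Tgfbr2-/- ILC2p (-4.05 ± 3.10, adjusted p = 0.861). A single low WT and a single high Tgfbr2-/- library, both sparse, crossed the genotypes. Without 1 library the log2 fold change of *Pdcd1* lay between -7.51 and -2.24 (edgeR adjusted p between 0.237 and 0.93). *Cd96* had 113, 211, 155 and 73.8 CPM in WT against 71.6, 0.855, 33.3 and 85.8 CPM in Tgfbr2-/- ILC2p, which overlapped in experiment 2 (-1.66 ± 1.12, adjusted p = 0.806). *Lag3* had 0, 0.283, 0.432 and 0.213 CPM in WT ILC2p. It had 0 counts in both Tgfbr2-/- libraries of experiment 1 but 44.2 and 102 CPM (1009 and 2475 counts) in those of experiment 2, with an exact permutation p of 0.333. The NK and ILC1 list summed to 157 and 137 CPM in the former and 97.9 and 501 CPM in the latter, with *Eomes* at 0 in all 4, against 0.439 to 38.3 CPM in WT. Its members went different ways over these 4 libraries, with *Prf1* at 0, 0, 47.2 and 266 CPM and *Klrb1c* at 121, 30.2, 17.6 and 0 CPM. The part of this list was not tested. *Tigit* had 163 counts (3.86 CPM) in WT replicate 2 of experiment 2 and at most 2 counts in the other 7 ILC2p libraries.

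Both ligands varied widely in ILC2p. *Cd274* had 71.6, 116, 0.374 and 15.8 CPM in WT against 0.202, 0.107, 9.77 and 63.8 CPM in Tgfbr2-/- ILC2p. In experiment 1 the WT libraries were high and the Tgfbr2-/- libraries at 2 counts or fewer, while in experiment 2 the values overlapped (-3.46 ± 5.62, adjusted p = 0.936). *Icosl* ranged from 3.52 to 63.3 CPM in WT and from 4.57 to 95.9 CPM in Tgfbr2-/- ILC2p (0.41 ± 1.51).

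**Figure D3:**
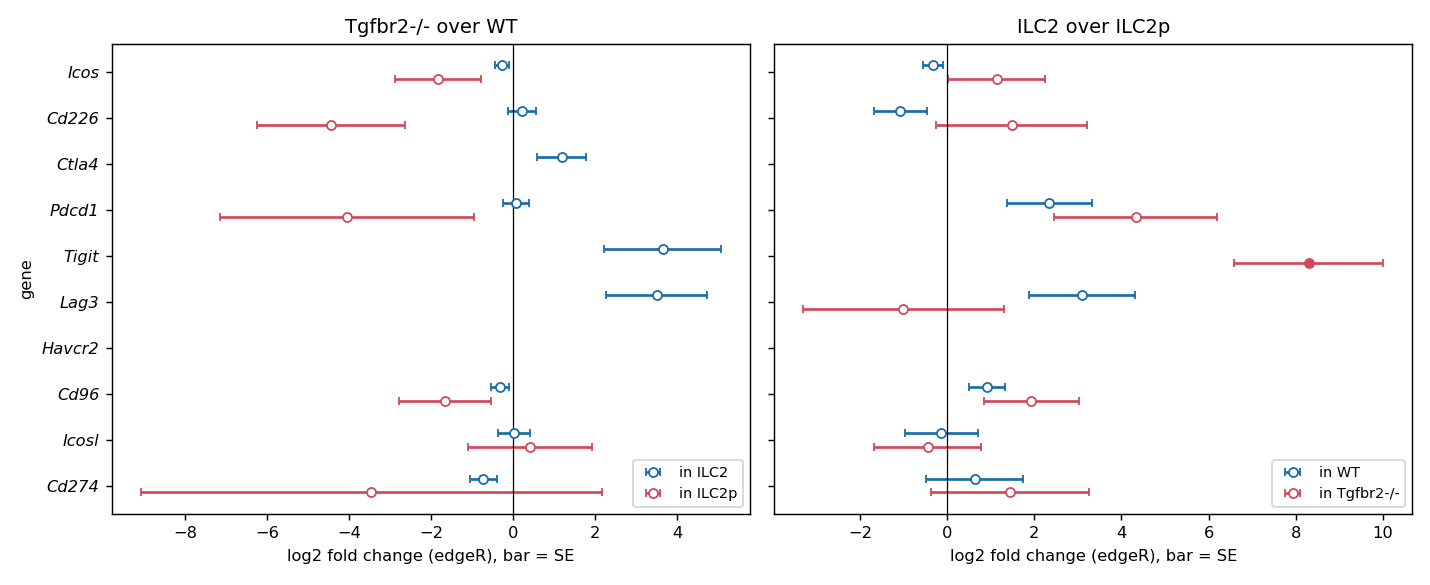
Log2 fold changes (edgeR, bars 1 SE) of Tgfbr2-/- over WT in each cell type and of ILC2 over ILC2p in each genotype. Blue marks ILC2s on the left and WT on the right, red marks ILC2p and Tgfbr2-/-. The 1 filled point, *Tigit* at 8.30 in Tgfbr2-/- libraries, was called, genes that did not pass the filter have no point, and *Ctla4* is left out on the right because all ILC2p libraries were at 0.

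The genotype difference was then compared between the cell types in a single fit over all 15 libraries, where 127 of 12806 genes (0.992%) were called (0.523% above and 0.469% below 0, and 12.1% at an unadjusted p under 0.05). None of the receptor and ligand genes was among them by edgeR. *Cd226* came nearest, with a difference in ILC2p minus that in ILC2s of -4.66 ± 1.82 on the log2 scale (adjusted p = 0.303). It was -7.00 without Tgfbr2-/- replicate 2 of experiment 1 of ILC2p (adjusted p = 0.00853), and DESeq2 gave -4.50 over all libraries (adjusted p = 0.0363), both past the threshold. *Pdcd1* gave -4.05 ± 2.70 (adjusted p = 0.655), and -7.56 without Tgfbr2-/- replicate 1 of experiment 1 of ILC2p (adjusted p = 0.0593), the library that held it at 54.7 CPM. *Tigit* gave -8.19 ± 3.55 (adjusted p = 0.384), and -1.35 (adjusted p = 0.911) without WT replicate 2 of experiment 2 of ILC2p, the library with 163 counts. *Icos* gave -1.57 ± 1.21 (adjusted p = 0.724) and *Cd96* -1.32 ± 1.23 (adjusted p = 0.813).

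*Ctla4* was higher in ILC2s than in ILC2p in both genotypes, and was the only 1 of the 8 genes tested that was called among WT libraries, where 2.56% of 10468 genes were called (1.82% higher and 0.736% lower in ILC2s) and 9.39% had an unadjusted p under 0.05. It was at 3.67 to 15.3 CPM in WT ILC2s and had 0 counts in all 8 ILC2p libraries, which allows 3 counts, 0.0711 to 0.321 CPM, in each. *Ctla4* therefore passed the filter on low counts only through the ILC2 libraries, as would any gene near 0 in ILC2p. Its entry to the test thus depended on the group where it was high. The mean of 9.74 CPM in WT ILC2s was at least 65.8-fold higher than the mean of 3 counts per library in WT ILC2p (edgeR adjusted p = 0.0433), and the adjusted p lay between 0.0522 and 0.143 when 1 library was left out. In Tgfbr2-/- libraries it was at least 110-fold higher (adjusted p = 0.0278, between 0.0244 and 0.0974 without 1 library). The exact permutation p was 0.0286 in each genotype, the smallest either design allows. Among all genes tested, every ILC2 library lay above every ILC2p library for 6.24% in WT and 16.0% in Tgfbr2-/- libraries, and below for 4.14% and 8.51%. Markers of other lymphocytes were also called higher in WT ILC2s, namely *Cd6* (1 of 7 T cell genes tested), *Gzma* (1 of 5 for NK cells and ILC1s), *Il22* (1 of 4 for ILC3s) and *Cd79a* (1 of 2 for B cells). In Tgfbr2-/- libraries 3 of 7, 3 of 7, 2 of 6 and 1 of 3 of these lists were, against 9.13% of all genes. Their part was not tested.

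*Tigit* was called in the Tgfbr2-/- libraries, where 13.7% of 11469 genes were called (9.13% higher and 4.60% lower in ILC2s, with 18.7% at an unadjusted p under 0.05), as were 2 of the 9 receptor and ligand genes tested. It had 1112 counts in the 3 ILC2 libraries and 3 in the 4 ILC2p libraries, a ratio of 312 per scaled total (95% exact interval 106 to 1513, counting error only). Like *Ctla4*, *Tigit* passed the filter on low counts only through the ILC2 libraries, where it was high. The fitted log2 fold change was 8.30 ± 1.71 (adjusted p = 0.0258, exact permutation p = 0.0286). In WT libraries *Tigit* did not pass the filter and overlapped between the cell types, at 0.426 to 11.1 CPM in ILC2s and 0 to 3.86 CPM in ILC2p.

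*Pdcd1* lay higher in every ILC2 library than in any ILC2p library of the same genotype. The means were 275 ± 69.4 CPM in WT ILC2s and 54.1 ± 38.1 CPM in WT ILC2p (SD, n = 4 each), a log2 fold change of 2.35 ± 0.97 (adjusted p = 0.468). Without the sparse WT replicate 1 of experiment 1 it was 1.96 (adjusted p = 0.0154). The exact permutation p was 0.0286 over all WT libraries and 0.0571 over all Tgfbr2-/- libraries, where 0.0286 is the smallest either design allows. Among Tgfbr2-/- libraries the log2 fold change was 4.33 ± 1.87 (adjusted p = 0.258 by edgeR and 0.0849 by DESeq2), and 9.71 without replicate 1 of experiment 1 of ILC2p (adjusted p = 0.00142).

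*Lag3* was also higher in every WT ILC2 library (0.801 to 4.9 CPM) than in any WT ILC2p library (0 to 0.432 CPM), with a log2 fold change of 3.09 ± 1.22 (adjusted p = 0.435). In Tgfbr2-/- libraries the cell types overlapped (-1.0 ± 2.30, adjusted p = 0.937).

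*Icos* was shared by both cell types, at 276 ± 27.7 CPM in WT ILC2s and 349 ± 90.3 CPM in WT ILC2p (SD, n = 4 each), a log2 fold change of -0.33 ± 0.23 (adjusted p = 0.805). *Cd226* gave -1.07 ± 0.61 (adjusted p = 0.703), *Cd96* 0.92 ± 0.42 (adjusted p = 0.54), *Cd274* 0.63 ± 1.11 (adjusted p = 0.962) and *Icosl* -0.13 ± 0.83 (adjusted p = 0.986). In Tgfbr2-/- libraries these 5 genes gave between -0.44 and 1.93, none called. There *Cd96* was higher in every ILC2 library than in any ILC2p library (1.93 ± 1.09, adjusted p = 0.452). Without Tgfbr2-/- replicate 2 of experiment 1 of ILC2p, a sparse library, *Cd96* gave 1.55 (adjusted p = 0.0998) and *Cd226* went from 1.48 ± 1.73 (adjusted p = 0.841) to 5.68 (adjusted p = 0.0324), both then called.

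Other receptors and ligands of the same families were followed in a list of 31 genes, 26 of which were in the tables. In ILC2s none of the 17 tested was called between the genotypes, and in WT none of the 12 tested was called between the cell types. In Tgfbr2-/- ILC2p 3 of the 9 tested rose, where 2.61% of all genes tested were called higher. *Lgals3*, which encodes galectin-3, a ligand of LAG-3, had 1.3 to 5.95 CPM in WT against 654 to 949 CPM in Tgfbr2-/- ILC2p (8.03 ± 0.63, adjusted p = 0.000208). *Ceacam1*, a ligand of TIM-3, was at 0.901 to 9.23 against 170 to 713 CPM (7.03 ± 0.98, adjusted p = 0.0054). The gene of the checkpoint molecule VISTA, listed as 4632428N05Rik, was at 19.1 to 133 against 488 to 1288 CPM (3.43 ± 0.44, adjusted p = 0.00344). These are also expressed by myeloid cells, whose genes were high in the same libraries as given above, and the part of such cells was not tested.

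Between the cell types in Tgfbr2-/- libraries 6 of 14 genes of this list were called, 3 in each direction, where 13.7% of all genes tested were called (9.13% higher, 4.60% lower). Those with the widest fold changes were, higher in ILC2s, *Pvr*, the shared ligand of TIGIT, CD96 and CD226 (6.85 to 10.6 CPM against 0 in all 4 ILC2p libraries, adjusted p = 0.027) and the receptor *Cd244* (0.719 to 9.31 CPM against at most 0.101 CPM, adjusted p = 0.0327). *Ceacam1* (-4.38 ± 1.10, adjusted p = 0.0361) and 4632428N05Rik (-4.06 ± 0.53, adjusted p = 0.00547) were lower in ILC2s.

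*Cd28*, the neighbour of *Ctla4*, was chosen with its values known. WT ILC2s held it at 36 to 79.4 CPM and Tgfbr2-/- ILC2s at 24.6 to 47.8 CPM (-1.0 ± 0.38, adjusted p = 0.898), and at most 4.04 CPM in any ILC2p library.

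Intracellular partners of these receptors (20 genes, 19 in the tables) were called in no comparison of genotype or cell type, at 15 to 19 genes tested. *Ptpn11*, which encodes the phosphatase SHP-2 recruited by PD-1, gave the widest change. It had 76.3 to 189 CPM in WT against 1.41, 0.214, 58.9 and 0.947 CPM in Tgfbr2-/- ILC2p (-4.59 ± 2.04, adjusted p = 0.523), where the 3 low libraries were the sparse ones.

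Of 16 transcription factors known to accompany inhibitory receptors in T cells, all in the tables, 3 of 14 tested were called between the cell types in WT and 3 of 15 in Tgfbr2-/- libraries, all higher in ILC2s, where 1.82% and 9.13% of all genes tested were called higher. None was called between the genotypes. *Nr4a1*, induced by antigen receptor and other acute signals, was at 11567 to 14439 CPM in WT ILC2s and 59 to 350 CPM in WT ILC2p (5.97 ± 0.53, adjusted p = 0.000611). In Tgfbr2-/- libraries it was at 8941 to 11928 CPM against 13.4 to 241 CPM (6.45 ± 0.82, adjusted p = 0.00459). *Nr4a2* was at 79.9 to 193 CPM against 11.6 to 25.8 CPM in WT (3.0 ± 0.48, adjusted p = 0.0178). *Irf4* was at 4.43 to 23 CPM in WT ILC2s and at most 0.166 CPM in WT ILC2p (adjusted p = 0.0619). *Nr4a3* (61.2 to 123 CPM in ILC2s against at most 0.0412 CPM, adjusted p = 0.00579) and *Tbx21*, the factor of ILC1s (16.9 to 89.3 against at most 0.0412 CPM, adjusted p = 0.0177), were called in Tgfbr2-/- libraries.

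The genes most like the 3 leading receptors were found by the root mean square difference of log2(CPM + 1), each gene centred on its own mean over the 15 libraries, among 12806 genes. For *Icos* they were *Nmi* (0.44), *Cd27* (0.47) and *Ccdc53* (0.62), where *Icos* itself varied by 1.74 about its mean. For *Pdcd1* they were *Cyp51* (0.80), *Rxrg* (1.04) and *Atp10a* (1.10), against 3.18 for *Pdcd1*. For *Cd96* they were *Enpp4* (0.64), *Gbp2* (0.66) and *Ccr8* (0.69), against 1.78. The libraries share cell type, depth and sparsity, so likeness is a description.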

How the data were processed

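The labels gave the cell type, genotype, experiment and replicate of each library, except that the Tgfbr2-/- ILC2 title of experiment 2 had no replicate number. Some sample titles disagreed with the names of the deposited data, and the titles were followed. The authors mapped reads to mm9 with TopHat (up to 15 hits; the submitters' processing notes name Bowtie2) and counted them on RefSeq genes with rpkmforgenes over full transcripts, leaving out overlaps of differently named genes. The authors deposited raw counts per gene, not normalized, beside RPKM. Strand was not given in the sources used here. Counts were fitted over the whole table with edgeR 4.0.16 (R 4.3.3; TMM, filterByExpr, quasi-likelihood test, experiment as covariate for genotype), adjusted by Benjamini-Hochberg over all genes tested in each of 7 comparisons and called at adjusted p under 0.1 and fold over 1.5, the thresholds of the study's methods. The SE is the log2 fold change over the square root of F. CPM used TMM factors over 15 libraries. Single genes were also tested by exact permutation of log2(CPM + 1), two-sided. Intervals and limits from 3 counts cover counting error only.

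Each result was recomputed with other tools (DESeq2 1.42.0; on log2(RPKM + 1), limma 3.58.1), other scalings, filters and thresholds, no covariate, a replicate block, each experiment alone and leaving out libraries. The alternative without the sparse libraries was chosen after seeing the data. The 10 genes and the lists were chosen with earlier results of these data known. Besides the 10 genes and *Tgfbr2*, the text names the called genes of 3 lists (family members, intracellular partners, transcription factors), with the 2 highest and 2 lowest where over 4 were called in a comparison, or else the gene with the widest change. The fits were run on simulated counts with a fixed spread for all genes and no sparse libraries. That run checks the code, not how the fits perform on libraries as uneven as these. No libraries were alike within sampling noise.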

Additional observations from a re-analysis of the deposited data

Results flagged for a closer look

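In a group of 4 libraries, a library was looked at again where its gap to the nearest other exceeded the 95% critical value of Dixon's ratio. This held for 6 of the 27 gene and group combinations with any spread, where chance gives about 1 in 20. In ILC2s both were in WT replicate 2 of experiment 2, *Lag3* at 4.9 CPM and *Havcr2* at 7.41 CPM. In WT ILC2p it was *Tigit* at 3.86 CPM in replicate 2 of experiment 2. In Tgfbr2-/- ILC2p they were *Cd226* at 60.9 CPM in replicate 2 of experiment 1, *Pdcd1* at 54.7 CPM in replicate 1 of experiment 1 and *Cd274* at 63.8 CPM in replicate 2 of experiment 2, all 3 in sparse libraries.

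The genotype difference differed between the cell types for 2 further genes of the receptor families, by the interaction in edgeR. *Lgals3* gave 7.03 ± 0.97 on the log2 scale (ILC2p minus ILC2, adjusted p = 0.0052) and 4632428N05Rik gave 4.0 ± 0.70 (adjusted p = 0.0195).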

How the results depend on the processing

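Of 706 values of the receptor and ligand genes under an alternative, 642 kept direction and side of the threshold, 11 lost a call, 23 gained one and 30 turned direction. Except where fewer libraries or genes entered a fit, the cause was not tested. For cell types, experiments alone means the ILC2 and ILC2p experiments of the same number, which were separate experiments joined by that number only. Between genotypes in ILC2s, 0 calls became 338 with DESeq2 and 3 with no filter, and stayed 0 without any 1 library. In ILC2p 321 calls became 1229 (DESeq2), 199 (at least 10 counts in every library), 38 and 77 (experiment 1 and 2 alone), 25 (without the sparse libraries) and 179 to 319 without 1 library. Between cell types in WT, 268 calls became 174 (adjusted p under 0.05 and fold over 2), 604 (DESeq2), 176 (no filter), 436 (limma), 5 and 40 (experiments alone) and 95 to 370 without 1 library, and in Tgfbr2-/- libraries 1575 became 389 (at least 10 counts), 2838 and 44 (experiments alone), 4781 (without the sparse libraries) and 1095 to 2384. For the difference of genotype effects 127 calls became 68 (stricter threshold), 1518 (DESeq2), 203 (upper quartile), 196 (library size), 259 (no filter), 382 (limma), 1136 (without the sparse libraries) and 14 to 407. Between experiments 117 calls in ILC2s became 5 (stricter threshold), 1347 (DESeq2), 31 (upper quartile), 23 (library size), 320 (no filter) and 0 to 10, and 0 calls in ILC2p became 397 (DESeq2), 5 (no filter) and 0 without any 1 library.

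Replicate numbers did not pair the libraries, since deviations of same-numbered libraries correlated at -0.05 in ILC2s and at -0.01 and -0.04 in ILC2p. A replicate block gave 175 calls in ILC2p and 0 in ILC2s. Relative to TMM, upper quartile scaling moved the median log2 fold change of all genes from -0.10 to -0.40 between genotypes in ILC2p (203 higher and 119 lower calls, against 241 and 80), from -0.27 to 0.34 between cell types in Tgfbr2-/- libraries (1233 and 357, against 1047 and 528), from -0.31 to -0.66 for the difference of effects (57 and 146, against 67 and 60) and from 0.00 to 0.16 between experiments in ILC2s (13 and 18, against 34 and 83). Library size scaling gave 217 and 111, 1142 and 409, 65 and 131, and 13 and 10 in the same order.

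The values that turned direction were all uncalled. In ILC2s between genotypes, *Cd226* went from 0.21 to -0.09 without the covariate, -0.22 in experiment 2 and between -0.05 and 0.52 without 1 library, *Pdcd1* from 0.07 to -0.02 in experiment 1 and between -0.24 and 0.34, and *Icosl* from 0.02 to -0.01 in experiment 1 and between -0.20 and 0.23. In ILC2p, *Icosl* went from 0.41 to -0.25 (limma), -0.79 (experiment 2) and between -0.76 and 1.06, and *Cd274* from -3.46 to 1.98 (experiment 2), 0.12 (without the sparse libraries) and between -7.46 and 0.39. Between cell types in WT, *Icosl* went from -0.13 to 0.21 (limma), 0.96 (the ILC2 and ILC2p experiments numbered 1) and between -0.49 and 0.40. In Tgfbr2-/- libraries, *Lag3* went from -1.0 to 0.79 (limma), 11.92 (experiment 1, where both ILC2p libraries were at 0) and between -1.50 and 0.27, and *Icosl* from -0.44 to 0.15 (upper quartile), 0.56 (limma) and between -0.78 and 0.43. The call of *Ctla4* between cell types in WT was lost with no filter (edgeR adjusted p = 0.114). It was also lost with only the separate ILC2 and ILC2p experiments numbered 1 (0.332) or numbered 2 (0.201). In Tgfbr2-/- libraries the calls of *Ctla4* and *Tigit* were lost with only the experiments numbered 2, which left 1 ILC2 library. Neither gene passed a filter of at least 10 counts in every library there. Where a fit left 1 library in a group, that library was assumed to vary like the others.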
